A study of Mus musculus with 4 samples.

Results

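The genes described here encode Bcl-xL (Bcl2l1), Bcl-2 (Bcl2), Mcl-1 (Mcl1), Bcl-w (Bcl2l2) and Bcl2l10, which are anti-apoptotic members of the Bcl-2 family or close relatives, together with the Bcl-2-binding co-chaperone Bag1. They were chosen by name: all probe sets whose platform annotation named 1 of these 6 genes and no other gene. This gave 10 probe sets for all 6 genes, out of 10833 single-gene probe sets for 8251 genes. RNA was measured on 4 Affymetrix mouse arrays in CD4+CD8+ double-positive thymocytes, sorted with microbeads from thymi of female C3H/HeN mice aged 4 weeks. The dexamethasone group was cultured for 3 h with 1e-07 M dexamethasone, a synthetic glucocorticoid, in PBS. The medium group was cultured for 3 h without it, in medium with 0.1% PBS. There were 2 arrays per group, which the series design describes as technical replicate extracts, so p-values measure the spread between these extracts only. Whether thymi of several mice were pooled is not given in the sources used here. The series title names the question, which is how dexamethasone modulates pro- and anti-apoptotic molecules in these cells.

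Anti-apoptotic Bcl-2 proteins hold the mitochondrial outer membrane closed by binding the pore-forming proteins Bax and Bak and the BH3-only proteins, such as Bim, that activate them. Whether a cell lives depends on the balance between these opposing proteins. In double-positive thymocytes Bcl-xL is known as a main survival factor and Bcl-2 is low, while Bcl-2 is higher in the stages before and after. These cells are sensitive to glucocorticoids, which kill them through the mitochondrial pathway.

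The promoters of Bcl2l1 and Bcl2 are shown because the bright probe sets of these genes differed between the groups in opposite directions. Neither difference passed the threshold used below (limma adjusted p = 0.0756 and 0.103). A dim Bcl2 probe set had a log2 difference of -0.56 ± 0.51, and 1 other array scaling put the bright one at 0.07 ± 0.22. The part of these promoters in the differences was not tested. Each sequence runs from 250 bases before to 50 bases after a start site, on the minus strand of GRCm38.p6, from RefSeq. The Bcl2l1 start site shown is the third of 3 in RefSeq order along the gene, at chr2:152828440-152828739. It is shown because it alone of the 3 held the half-site marked, and the other 2 had 0 matches to it. The Bcl2 promoter, with 0 matches, lies at chr1:106714241-106714540. Capitals mark AGGTCA, a half-site bound by several nuclear receptors, searched on both strands.
Bcl2l1: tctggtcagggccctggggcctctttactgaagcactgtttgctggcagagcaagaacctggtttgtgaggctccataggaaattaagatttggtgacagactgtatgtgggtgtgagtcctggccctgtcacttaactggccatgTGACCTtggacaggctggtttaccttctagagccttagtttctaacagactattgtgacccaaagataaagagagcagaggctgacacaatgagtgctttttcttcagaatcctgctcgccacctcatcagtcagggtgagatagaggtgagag
Bcl2: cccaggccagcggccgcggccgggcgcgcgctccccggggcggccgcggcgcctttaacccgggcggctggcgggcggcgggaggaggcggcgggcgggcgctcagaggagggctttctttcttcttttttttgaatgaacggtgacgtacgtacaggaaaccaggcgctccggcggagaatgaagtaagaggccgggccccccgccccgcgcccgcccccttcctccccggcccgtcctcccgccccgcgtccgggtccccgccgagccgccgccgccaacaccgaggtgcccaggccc
Promoter entries were matched for 5 of the 6 genes, 7 entries in all, and Bcl2l10 had none. The glucocorticoid half-site AGAACA, searched on both strands, had 0 matches in the 7 entries, beside 19.0% of 32851 mouse promoters of this length that held it. The palindrome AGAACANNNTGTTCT, which contains 2 such half-sites, also had 0 matches and was held by 0.00913% of all promoters. AGGTCA was found in the Bcl2l1 entry shown, on the opposite strand, starting 104 bases before the start site, and in the Bcl2l2 entry, beside 16.3% of all promoters. A match describes letters only. The Bcl2 promoter had a GC content of 76.0%, against 49.3% to 55.7% in the 3 Bcl2l1 entries.

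In their deposited scaling arrays had median signals of 21.9 to 22.8 with dexamethasone and 21.1 to 21.7 in medium. That scaling gave every array a trimmed mean of 100.06 to 100.07, so close medians follow from it in part. A signal of 14, the highest value of 19 control probe sets for transcripts not added to the sample, served as background. The 9 hybridization controls were 1.37-fold higher on dexamethasone arrays. When arrays were scaled to these controls, the median log2 difference of the tested probe sets was -0.45, against 0.00 as deposited, so each direction given holds for the scaling as deposited. As a measure of RNA integrity, the 3′ to 5′ ratio of actin was 1.24 to 1.40 with dexamethasone and 1.06 to 1.15 in medium. The same ratio of Gapdh overlapped between the groups, at 0.82 to 0.90 with dexamethasone and 0.84 to 0.85 in medium. The part of RNA integrity in the results below was not tested. Fkbp5, a glucocorticoid receptor target used as a check of the treatment, had signals of 2382 and 2152 with dexamethasone and 660 and 589.9 in medium.

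Of 11 markers listed for double-positive thymocytes, all 9 measured lay above background on all arrays. Their summed signal was 12721 to 13708 with dexamethasone and 12985 to 13473 in medium. Markers of other cell types also lay above background, as given below, so presence above background does not set the double-positive label apart. In limma 0 of these 9 double-positive markers passed, beside 3.15% of all tested probe sets. Of the 9, 3 had an unadjusted p under 0.05, beside 19.0%. Cd8b1, the CD8 beta chain, was at 1648 and 1626 with dexamethasone and 2138 and 1993 in medium (-0.33 ± 0.07, limma adjusted p = 0.0591). It passed as lower with equal array medians (limma adjusted p = 0.0232), quantile normalization (0.0149), scaling to the hybridization controls (9.49e-08) and the replicate block (0.0297). Of 10 measured markers of thymic epithelium and stroma, 7 were at or under background on all arrays, as were 4 of 9 for macrophages and dendritic cells. Of those 9, 2 were above background on all arrays, Cd68 and Cd14. The 4 keratin genes of the stromal list, Krt5, Krt8, Krt14 and Krt18, were at 5.8 or less on all arrays. The other 3 stromal markers were above background on all arrays, with Ly75 at 49.1 to 58.0 with dexamethasone and 38.9 to 61.7 in medium, and Aire at 16.8 to 18.4 with dexamethasone and 17.1 to 17.2 in medium. Col1a1, a fibroblast collagen, was at 33.5 and 38.2 with dexamethasone and 16.5 and 18.4 in medium, without overlap (log2 difference 0.997 ± 0.198, limma adjusted p = 0.0571). The summed stromal signal was 122.8 to 139.5 with dexamethasone and 86.0 to 113.7 in medium, and the myeloid sum was 103.3 to 121.3 with dexamethasone and 109.2 to 123.7 in medium. Of 4 measured erythroid markers 1 was above background on all arrays, Hba-a1, at 112.1 and 104.0 with dexamethasone and 94.3 and 99.9 in medium. The erythroid sum was 125.9 to 149.6 with dexamethasone and 118.1 to 120.3 in medium. Of 7 measured B cell markers 4 were above background on all arrays. In limma 6 were tested and 1 rose, Ighm, beside 1.64% of all tested probe sets. The sum of the 7 was 1911 to 1932 with dexamethasone and 1407 to 1430 in medium. Most of this sum was Ighm, at 1751 and 1749 with dexamethasone and 1282 and 1257 in medium. Cd79b, Ms4a1 and Pax5 were higher without overlap but did not pass, and Cd79a, Cd22 and Blk overlapped between the groups. Of all tested probe sets 24.5% were higher and 25.5% lower without overlap. These shares also stand beside Col1a1 above and Itgb7 below. Of 6 measured double-negative markers 3 were tested and 1 fell, Ptcra, beside 1.52% of all tested probe sets. The sum of the 6 was 96.4 to 102.2 with dexamethasone and 131.5 to 140.5 in medium. The lower sum rests on Ptcra, at 49.5 and 47.0 with dexamethasone and 87.7 and 86.1 in medium. Of the 6, 4 were at or under background on all arrays. Of 5 measured markers of mature single-positive cells 4 were above background on all arrays. These 4 were tested and 1 rose, Il7r, beside 1.64% of all tested probe sets. The sum of the 5 was 364.8 to 382.2 with dexamethasone and 322.3 to 355.4 in medium. Itgb7 went the other way, at 125.3 and 126.2 with dexamethasone and 167.9 and 161.7 in medium, without overlap (-0.39, limma adjusted p = 0.0759). Ccr7, Klf2 and S1pr1 overlapped between the groups, so the higher sum rests on Il7r. Ighm and Ptcra did not pass when any array was left out, and Ighm was at 0.01 with scaling to the hybridization controls. The part of these shifts in the results below was not tested. In bulk RNA, fewer cells of a type and less RNA per cell cannot be told apart.

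Of the 10 probe sets, 4 were above background on all arrays, 1 each for Bcl2l1, Mcl1, Bag1 and Bcl2. Signals of different probe sets depend on their probes, so their order does not rank the transcripts. The brighter Bcl2l1 probe set, 99027_at, lay at the 93.2 percentile of all probe sets with dexamethasone and the 95.5 percentile in medium. The Mcl1 probe set, 93093_at, lay at percentile 93.6 with dexamethasone and 93.7 in medium, and the Bag1 probe set, 160540_at, at 76.2 with dexamethasone and 77.6 in medium. The brightest Bcl2 probe set, 98870_at, lay at percentile 65.7 with dexamethasone and 59.97 in medium. In medium the percentile ranges of these 4 probe sets did not overlap, from 94.9 to 96.1 for Bcl2l1, 93.5 to 93.9 for Mcl1, 76.7 to 78.5 for Bag1 and 59.96 to 59.99 for Bcl2. With dexamethasone Bcl2l1 was below Mcl1 on 1 array and above it on the other, so their order there did not hold.

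**Figure D1:**
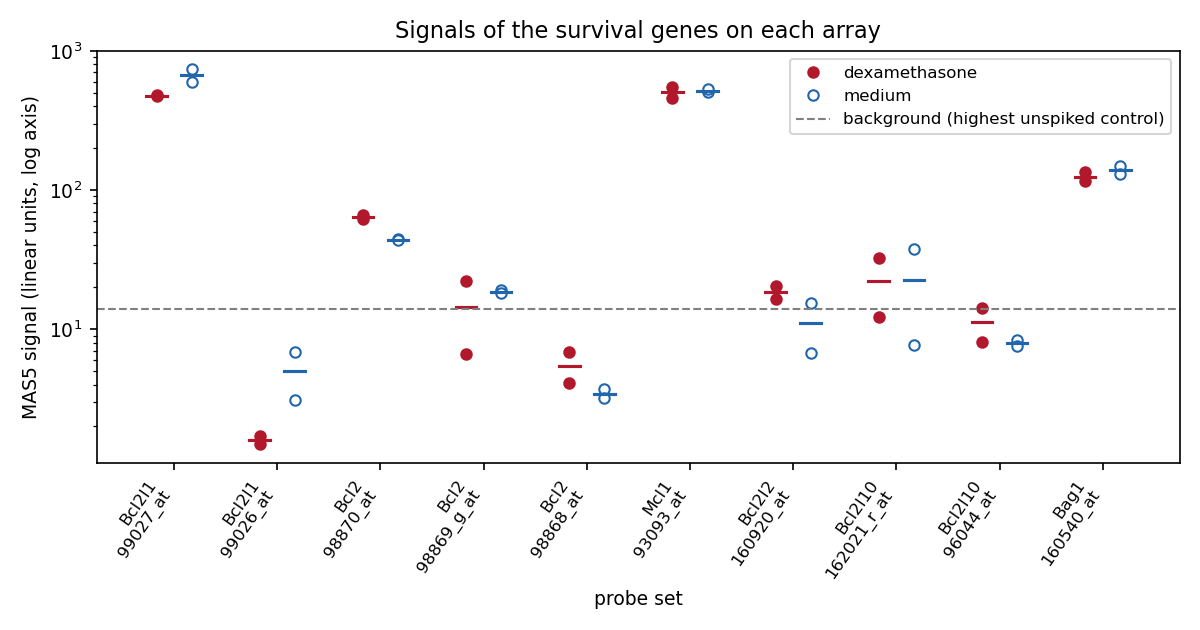
MAS5 signal (log axis) of the 10 probe sets on each array, with dexamethasone left of medium, short lines at the means of 2 arrays, and a dashed line at the background of 14. Bcl2l1 99027_at sits lower with dexamethasone and Bcl2 98870_at higher, Mcl1 and Bag1 overlap between groups, and the remaining probe sets lie at or below 37.4, each with at least 1 array at or below background.

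Of the 10 probe sets, 7 had a mean log2 signal above the 40th percentile and were tested, representing all 6 genes. With limma and Benjamini-Hochberg adjustment over 7453 tested probe sets, 0 of the 7 passed the threshold of 0.05. Over all tested probe sets 3.15% passed, 1.64% higher and 1.52% lower with dexamethasone. These were 122 higher and 113 lower, beside 91 and 150 with equal array medians, 64 and 3156 with scaling to the hybridization controls, and 27 to 62 in all when 1 array was left out. At an unadjusted p under 0.05 there were 2 of the 7, beside 19.0% of all tested. The groups did not overlap for 3 of the 7, 2 higher and 1 lower, beside 50.0% of all tested, 24.5% higher and 25.5% lower. The median was -0.04 over the 7 and 0.00 over all tested probe sets. These shares are small counts on 7 probe sets, 2 of which report on the same gene, Bcl2.

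Bcl2l1 encodes Bcl-xL, and alternative splicing of the gene in mammals also gives the pro-apoptotic Bcl-xS, which these values do not separate. Probe set 99027_at had signals of 480.2 and 472.3 with dexamethasone and 597.6 and 733.9 in medium. Both dexamethasone arrays were below both medium arrays, and the medium arrays differed from each other more than the dexamethasone arrays did. The mean was 476 ± 5.59 with dexamethasone and 666 ± 96.4 in medium (SD, n = 2 each), a ratio of 0.715. The log2 difference was -0.47 ± 0.11 (SE), with a 95% interval from -0.73 to -0.22 and a limma adjusted p of 0.0756. A larger absolute difference was seen for 10.8% of all tested probe sets. Without the second medium array, the higher of the pair, the log2 difference was -0.33 (limma adjusted p = 0.273), and without the first it was -0.62 (limma adjusted p = 0.0891). With a stricter filter, at the 60th percentile, the same difference had a limma adjusted p of 0.0494. The other Bcl2l1 probe set, 99026_at, was at 1.7 and 1.5 with dexamethasone and 6.9 and 3.1 in medium. All these values are below background, so it gives no fold and was not tested.

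Bcl2 encodes Bcl-2, the founding member of the family. Probe set 98870_at had signals of 65.7 and 61.5 with dexamethasone and 44.2 and 43.7 in medium. Both dexamethasone arrays were above both medium arrays. The mean was 63.6 ± 2.97 with dexamethasone and 44.0 ± 0.354 in medium (SD, n = 2 each), a ratio of 1.45. The log2 difference was 0.52 ± 0.13, with a 95% interval from 0.20 to 0.84 and a limma adjusted p of 0.103. It stayed positive when any array was left out, between 0.48 and 0.57, and was 0.07 with scaling to the hybridization controls.

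The other Bcl2 probe sets did not give the same picture. Probe set 98869_g_at was at 6.6 and 22.1 with dexamethasone and 19.0 and 18.2 in medium. The dexamethasone arrays lay on either side of the medium arrays, and the log2 difference of -0.56 ± 0.51 had a 95% interval from -1.81 to 0.68. Without the first dexamethasone array it was 0.24. Probe set 98868_at was at 4.1 and 6.8 with dexamethasone and 3.7 and 3.2 in medium, all below background, and was not tested. Averaging the 3 probe sets put the gene at 0.15 on the log2 scale (limma adjusted p = 0.828).

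Mcl1 encodes Mcl-1, a short-lived anti-apoptotic protein on which thymocytes are known to depend. Its single probe set had signals of 461.6 and 547.9 with dexamethasone and 507.6 and 528.1 in medium. The dexamethasone arrays lay on either side of the medium arrays. The mean was 505 ± 61.0 with dexamethasone and 518 ± 14.5 in medium (SD, n = 2 each), and the log2 difference was -0.04 ± 0.10 with a limma adjusted p of 0.860. The 95% interval, from -0.27 to 0.19, corresponds to ratios of 0.827 to 1.14. Without the first dexamethasone array the difference was 0.08.

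Bag1 binds Bcl-2 in addition to the Hsp70 chaperones. Its probe set was at 133.9 and 115.9 with dexamethasone and 147.5 and 130.8 in medium. The higher dexamethasone array was above the lower medium array. The log2 difference was -0.16 ± 0.12, with a 95% interval from -0.44 to 0.12 and a limma adjusted p of 0.520.

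Bcl2l2 and Bcl2l10 were dim, with no probe set above background on all arrays. Bcl2l2, which encodes Bcl-w, had signals of 20.5 and 16.5 with dexamethasone and 6.7 and 15.3 in medium. Its log2 difference was 0.79 ± 0.41 with a 95% interval from -0.19 to 1.77, and it did not pass (limma adjusted p = 0.356). The difference was 1.33 without the second medium array and 0.25 without the first, so its size rests largely on the first medium array. Bcl2l10, known in mice as Diva or Boo, had signals of 32.4 and 12.2 with dexamethasone and 37.4 and 7.7 in medium on probe set 162021_r_at. Replicate 1 was the higher array in both groups, and the log2 difference of 0.20 ± 0.75 was smaller than the spread. Its other probe set, 96044_at, was at 14.3 and 8.1 with dexamethasone and 8.4 and 7.6 in medium, above background on 1 array only, and was not tested. With no filter on signal, the 3 probe sets left out above had limma adjusted p-values of 0.362, 0.645 and 0.729.

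**Figure D2:**
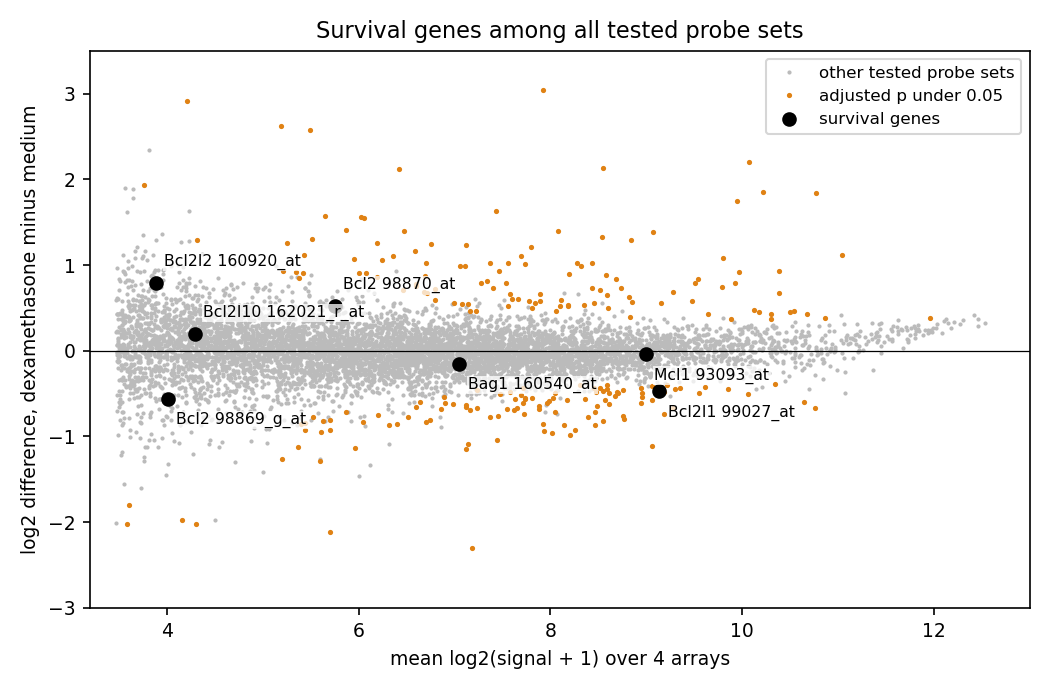
Log2 difference (dexamethasone minus medium) against mean log2(signal + 1) over 4 arrays for the 7453 tested probe sets, with those past the threshold in orange and the 7 survival probe sets in black. 4 probe sets lie outside the axes. The bright members sit at -0.47 for Bcl2l1, -0.04 for Mcl1, -0.16 for Bag1 and 0.52 for Bcl2, and the remaining 3 lie at low signal, where the spread is wide.

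Ratios within an array do not depend on how arrays are scaled to each other, and 3 pairs of brightest probe sets were compared. The direction of each was already known from the single genes. The log2 signal of Bcl2l1 exceeded that of Bcl2 by 2.85 and 2.92 on dexamethasone arrays and by 3.73 and 4.04 on medium arrays. The groups did not overlap, and the log2 ratio differed by -0.997, which is 0.501 of the ratio in medium. Bcl2l1 minus Mcl1 was 0.06 and -0.21 with dexamethasone and 0.24 and 0.47 in medium, a difference of -0.43. Bcl2l11, which encodes the BH3-only protein Bim, minus Bcl2l1 was 0.82 and 0.90 with dexamethasone and -0.82 and -1.18 in medium. The difference between the groups was 1.86 on the log2 scale. Both the level of a ratio and its difference between groups depend on which probe sets stand for the genes. Over all their probe sets, the difference of Bcl2l11 minus Bcl2l1 ran from 0.92 to 2.52. In each of the 3 pairs the groups did not overlap, and the two-sided exact permutation p of 0.333 is the smallest that 2 against 2 arrays can give. The Bcl2l1 to Bcl2 result rests on 98870_at: with the dim 98869_g_at in its place the difference was 0.09.

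**Figure D3:**
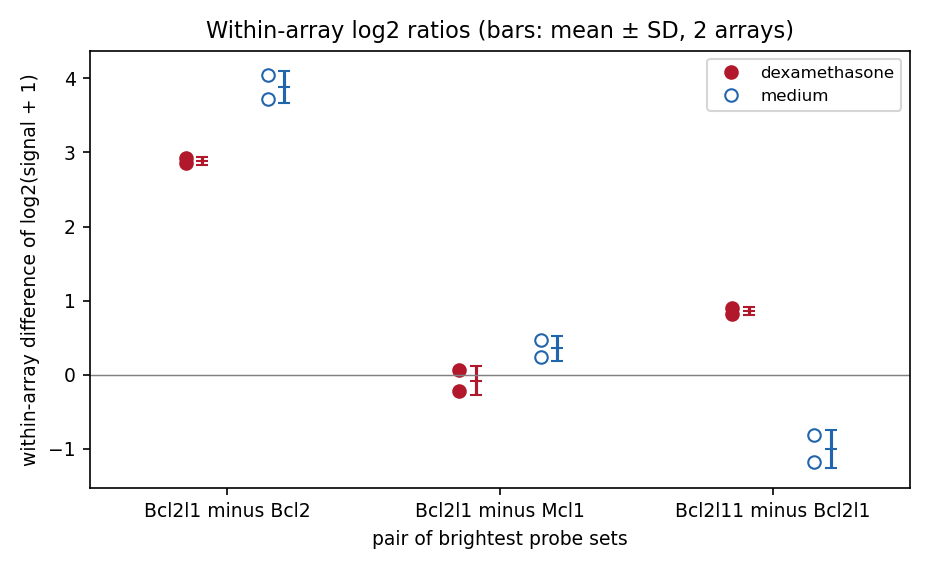
Difference of log2(signal + 1) between the brightest probe sets of 2 genes within each array, for 3 pairs, with dexamethasone left of medium and bars at the mean ± SD of 2 arrays. Bcl2l1 minus Bcl2 is 2.85 and 2.92 with dexamethasone and 3.73 and 4.04 in medium, and Bcl2l11 minus Bcl2l1 is above 0 with dexamethasone and below 0 in medium.

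Scaling changed how many of these genes passed. With arrays scaled to the hybridization controls 4 of the 7 probe sets passed as lower, those of Bcl2l1 (-0.93), Mcl1 (-0.50), Bag1 (-0.61) and the dim 98869_g_at of Bcl2 (-0.99). With that scaling 3156 of all 7453 probe sets also passed as lower and 64 as higher. With equal array medians or quantile normalization 0 of the 7 passed, with Bcl2l1 at -0.54 and -0.47. Bcl2l1 kept its sign under all 3 other scalings, and so did Bcl2 on 98870_at, at 0.46, 0.53 and 0.07. The last, with scaling to the hybridization controls, had an SE of 0.22 and so gives no direction.

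**Figure D4:**
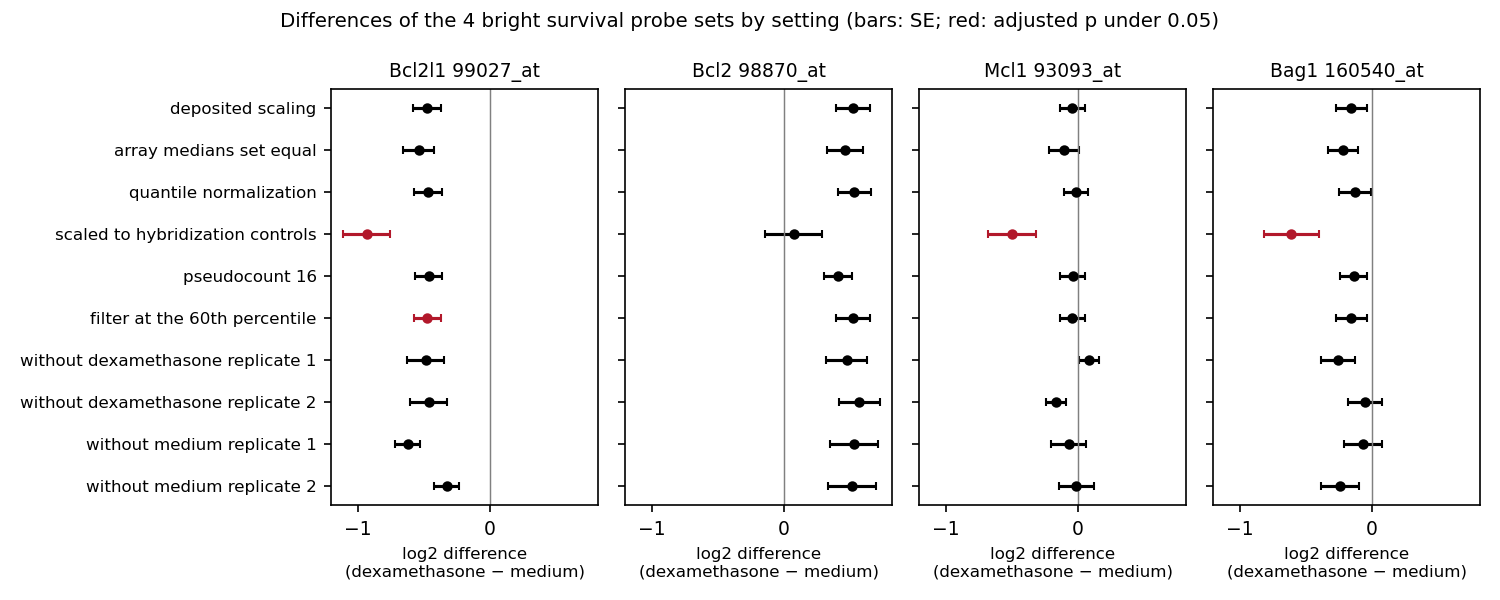
Log2 difference (dexamethasone minus medium) with its SE for the 4 bright probe sets under several settings, in red where the adjusted p was under 0.05. The Bcl2l1 estimates lie below 0, from -0.93 to -0.33, and those of Bcl2 above 0, from 0.07 to 0.57. At 0.07, with scaling to the hybridization controls, the bar of Bcl2 crosses 0. Mcl1 changes sign when the first dexamethasone array is left out.

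The partners and regulators of these proteins were followed in 10 lists of 66 genes, of which 40 were tested on their brightest probe set. Of the 40, 3 rose and 0 fell, beside 122 and 113 of all 7453, and 12 had an unadjusted p under 0.05, beside 19.0% of all tested probe sets, a share that also stands beside the counts of single lists below. The median log2 difference was -0.02, beside 0.00. After scaling by the hybridization controls, 2 of them rose and 23 fell. Of 8 listed BH3-only proteins, which antagonise the survival members, only 4 were tested, and of these 1 rose and 0 fell. This was Bcl2l11, at 849.7 and 879.8 with dexamethasone and 338.1 and 322.6 in medium, higher by 1.39 ± 0.07 on the log2 scale (limma adjusted p = 0.000540). Its dimmer probe sets were at 1.30, which passed, and 0.44, which did not.

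Of 3 listed pore-forming effectors 2 were tested and 0 passed in limma, and Bax was not among those tested. Bok was at 0.31, which was -0.13 with scaling to the hybridization controls, and Bak1 was at -0.15. The other Bcl-2-related proteins, 2 tested, were Bnip3 at 0.04 and Bcl2l13 at -0.05, and neither passed. In these lists 0 genes had an unadjusted p under 0.05. The A1 family, 4 anti-apoptotic relatives of Bcl-2, had no probe set that named a single gene. Of 8 tested inhibitors of apoptosis and related genes 0 passed in limma and 2 had an unadjusted p under 0.05, with Api5 at 0.26 and Birc2 at 0.26, both -0.19 after scaling to the hybridization controls. The dimmer Birc2 probe set was at -0.36. Of 5 survival kinases 0 passed in limma, and the largest differences were -0.41 for Pim2 and -0.29 for Pim3. The 2 with an unadjusted p under 0.05 were Pim3 and Akt1, the latter at -0.28. In the BAG family and among the partners of Bag1, 0 of 6 passed in limma and 1 had an unadjusted p under 0.05, Hspa8 at 0.25. The largest differences were Bag3 at 0.32, which was -0.12 with that scaling, and Bag2 at -0.26, against 0.11 on its next probe set. Bag6 was at -0.11 on its brightest probe set and lower without overlap on all its probe sets. The dimmer ones were at -0.23, -0.25 and -1.09, the last with a limma adjusted p of 0.0790.

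Mcl-1 is degraded through ubiquitin ligases and protected by deubiquitination, and 0 of 5 genes of its turnover passed in limma, while 2 had an unadjusted p under 0.05. Fbxw7, which encodes a ligase adaptor, was at 50.8 and 48.5 with dexamethasone and 67.3 and 77.5 in medium, without overlap (-0.53 ± 0.14, limma adjusted p = 0.104). Usp9x, which encodes a deubiquitinase, was at 129.1 and 128.2 with dexamethasone and 93.5 and 95.6 in medium, also without overlap (0.44 ± 0.09, limma adjusted p = 0.0688). The dimmer Usp9x probe set had a log2 difference of -0.01, as did the brighter with scaling to the hybridization controls.

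Of 5 listed regulators known to support Bcl2l1 in double-positive thymocytes, 3 were tested. In limma 0 of the 3 passed and 1 had an unadjusted p under 0.05. Ctnnb1, which encodes beta-catenin, was at 0.19 and the E-protein gene Tcf12 at 0.10, and with scaling to the hybridization controls they were at -0.27 and -0.36.

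Interleukin-7 signals through Jak1, Jak3 and Stat5 and is known to raise Bcl-2 in T cells. Of 5 tested genes of this route 2 rose and 0 fell. Il7r, the receptor alpha chain, was at 146.8 and 139.3 with dexamethasone and 49.4 and 58.0 in medium (1.40 ± 0.12, limma adjusted p = 0.00412). Without the first dexamethasone array its adjusted p was 0.0674. Jak1, the kinase bound to that chain, was at 906.3 and 1006 with dexamethasone and 545.6 and 559.5 in medium (0.79 ± 0.08, limma adjusted p = 0.00524). Jak1 did not pass without the first medium array (limma adjusted p = 0.0739), without the second (0.0691), or with scaling to the hybridization controls (0.33, adjusted p = 0.0878). Stat5a, a transcription factor downstream of both, was at 512.8 and 517.5 with dexamethasone and 713.9 and 623.4 in medium and did not pass (-0.37 ± 0.08, limma adjusted p = 0.0778). It passed as lower with equal array medians (-0.43, limma adjusted p = 0.0486) and with scaling to the hybridization controls (-0.83, adjusted p = 7.67e-05). Its other probe set was at -0.07.

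The genes whose 4 array values were most like those of the members were sought among 5581 other genes, by the root mean square distance between log2 values centred on each gene's mean. Nearest to Bcl2l1 was Znrf2, at a distance of 0.01, with 134.3 and 133.2 with dexamethasone and 166.1 and 204.0 in medium. Slco3a1 and Rasa4 followed, at distances of 0.02 and 0.03. Nearest to Bcl2 were Mios, Galnt4 and Nrip1, all at 0.02. Mios was dim, at 16.1 and 14.9 with dexamethasone and, below background, at 10.4 and 10.1 in medium. Nrip1, a corepressor of nuclear receptors, was at 347.3 and 311.5 with dexamethasone and 228.5 on both medium arrays. With 4 arrays, likeness over so many genes is a description only.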

How the data were processed

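The deposited values are linear signal intensities, 1 per probe set and array. The authors used MAS5, per the submitters' processing notes, with version and settings not given in the sources used here. Their trimmed mean, with 2% removed at each end, was 100.06 to 100.07 on every array. The table held 12488 probe sets, 66 of them controls, and 0 columns of other samples. Gene names came from the platform annotation, and 10817 of 10833 single-gene probe sets matched the RefSeq gene table, with 0 renamed. Of the other non-control probe sets 396 named several genes and 1193 named none. Signals were used as log2(signal + 1), a scale that understates the change of dim genes. A filter kept the 7453 non-control probe sets whose mean exceeded the 40th percentile. Dexamethasone minus medium was fitted with lmFit and eBayes with a trend (limma 3.58.1, R 4.3.3), and two-sided p-values were adjusted by Benjamini-Hochberg over all 7453. The procedure was tested on simulated data. The number of arrays limits the precision.

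The members, gene lists, alternatives and tests were chosen with earlier results of these data known. Of each list the text names up to 3 passing genes, or else the 2 with the largest differences. Stat5a, Hspa8, Bag6, Akt1 and the stromal, myeloid, erythroid, B cell, double-negative and mature single-positive markers were named after their values were seen. Alternatives were other scalings, pseudocounts and filters, no trend, summaries per gene, a replicate block and leaving out each array.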

Additional observations from a re-analysis of the deposited data

How the results depend on the processing

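For the 7 tested probe sets, 5 of the 15 alternatives (no filter, the stricter filter, no trend, the replicate block and the brightest probe set) change the p but cannot change the difference of Bcl2l1 99027_at or Bcl2 98870_at. In the other 10 both kept their sign, but Bcl2 98870_at was at 0.07 ± 0.22 with scaling to the hybridization controls, within its SE of 0. Over all 15, Bcl2l1 had adjusted p-values from 7.91e-06 to 0.273 and passed in 3: with scaling to the hybridization controls (-0.93), with a filter at the 60th percentile (-0.47) and with the replicate block (-0.47). Bcl2 98870_at passed in 0, with adjusted p-values from 0.0678 to 0.828. With scaling to the hybridization controls Bcl2 98869_g_at (-0.99), Mcl1 (-0.50) and Bag1 (-0.61) also passed, and Bcl2l10 turned to -0.23. Bcl2 98869_g_at turned to 0.15 as the mean of the gene's probe sets. Leaving out 1 array gave -0.62 to -0.33 for Bcl2l1, 0.48 to 0.57 for Bcl2 98870_at, -1.37 to 0.24 for 98869_g_at, -0.17 to 0.0815 for Mcl1, 0.25 to 1.33 for Bcl2l2, -0.87 to 1.27 for Bcl2l10 and -0.26 to -0.05 for Bag1. The signs turned for 98869_g_at (0.24), Mcl1 (0.0815) and Bcl2l10 (-0.47) without the first dexamethasone array, and for Bcl2l10 (-0.87) without the second medium array. The cause was not tested.

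Members called higher numbered 0 in all 15 alternatives, and those called lower 4 with scaling to the hybridization controls, 1 with the filter at the 60th percentile, 1 with the replicate block and 0 in the others. Over all tested probe sets, 122 higher and 113 lower became 64 and 3156 with scaling to the hybridization controls, 66 and 46 with no filter and 12 and 1 without the variance trend. The replicate block gave 174 lower, and leaving out 1 array 23 to 43 higher and 4 to 25 lower. Centring on array medians left 91 higher and 150 lower.

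The within-array ratios moved with the probe set. Bcl2l1 minus Bcl2 was -1.64, -0.57 and -1.65 with 99026_at against 98868_at, 98869_g_at and 98870_at, and 0.0897 for 99027_at against 98869_g_at. Bcl2l1 minus Mcl1 was -1.09 with 99026_at. Bcl2l11 minus Bcl2l1 was 2.52, 1.57 and 2.43 with 99026_at and 0.92 with 99418_at against 99027_at. Values of 99026_at are below background. Leaving out 1 array gave -1.15 to -0.84, -0.57 to -0.30 and 1.68 to 2.04 for the 3 pairs, and pairing by replicate number (replicate block) left the mean differences as they were. Same-numbered arrays share only a number: their deviations from the group means correlated at 0.09 over probe sets, and no label pairs them.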
